A study of Mus musculus with 2 samples.

Results

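Anxa1 encodes annexin A1, a protein that binds phospholipids in the presence of calcium. Sox6 encodes a transcription factor of the ventral dopaminergic neurons of the substantia nigra pars compacta, and Aldh1a1 encodes a cytosolic aldehyde dehydrogenase that marks much of this ventral tier. Dopaminergic neurons of the midbrain make dopamine with tyrosine hydroxylase (Th) and aromatic amino acid decarboxylase (Ddc), load it into vesicles with Slc18a2 and take it back up with the dopamine transporter, Slc6a3. The nuclei described here carry transcripts of both Anxa1 and Sox6.

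Nuclei came from the ventral midbrain of adult Dat-IRES-Cre, CAG-Sun1/sfGFP mice without any treatment. In these mice Cre, made from the dopamine transporter locus, turns on Sun1 fused to GFP at the nuclear envelope. A nucleus thus enters the sort for GFP+ singlets if its cell uses, or once used, that locus. Nuclei of 2 male mice were pooled for a library and nuclei of 3 female mice for the other. With 1 library for each sex, the sexes could not be tested against each other, and the libraries served as the 2 replicates. Transcripts were counted as unique molecular identifiers (UMIs), introns included. The male library held 6594 barcodes with 21631906 UMIs and the female library 5557 barcodes with 19870131 UMIs. Only 6 barcode sequences occurred in both libraries, and 1 of them belonged to a nucleus with Anxa1 and Sox6.

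A nucleus was kept if at least 500 genes were detected, and it was a member of the population if it held at least 1 UMI of Anxa1 and at least 1 of Sox6. The nuclei were thus chosen by their Anxa1 and Sox6 UMIs, which were not tested. Of 6556 male nuclei kept, 177 were members (2.70%, 95% Clopper-Pearson interval 2.32 to 3.12%). Of 5509 female nuclei kept, 189 were members (3.43%, 2.97 to 3.95%). In all, 366 of 12065 nuclei were described. The intervals cover counting error only. None of the barcodes with fewer than 500 genes held both transcripts, and the shallowest members had 897 genes in the male library and 1068 in the female library.

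Most members sat just inside the rule. In the male library 131 of 177 members held a single Anxa1 UMI, 29 held 2 and 17 held 3 or more, up to 7. In the female library 129 of 189 held a single UMI, 33 held 2 and 27 held 3 or more, up to 6. Just outside it lay 2933 male and 2629 female nuclei with Sox6 and no Anxa1 UMI, and 79 male and 71 female nuclei with Anxa1 and no Sox6 UMI. Members were deep nuclei, with a median of 4056 UMIs in the male library and 4417 in the female library, against 2730.5 and 3016 UMIs over all nuclei kept. Each member was therefore set against 3 Sox6 nuclei without Anxa1 of the same library that were nearest to it in UMIs, which gave 531 male and 567 female comparison nuclei with medians of 4056 and 4409 UMIs. The members carried a mean of 3.00 Sox6 UMIs in the male library and 3.24 in the female library. The matched nuclei carried 2.58 and 3.22. Levels below are CPM, the UMIs of a gene as a share of all UMIs summed over the nuclei of a group, scaled to a total of 1000000 UMIs.

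The label of the sort was checked against markers. All 5 dopaminergic markers, Th, Slc6a3, Slc18a2, Ddc and Nr4a2, were present, with a summed level of 2562 CPM in male and 3338 CPM in female members, and none differed from the matched nuclei past the threshold. Of the male members, 104 of 177 held both Th and Slc6a3 UMIs, as did 147 of 189 female members. Markers of other cells were low. The 3 GABAergic markers summed to 8.14 and 6.87 CPM (Gad2 was the most abundant), the 2 glutamatergic markers to 4.65 and 3.93 CPM (Slc17a6), the 6 astrocyte markers to 12.8 and 11.8 CPM (Slc4a4, with Gfap at 0) and the 5 endothelial markers to 6.97 and 8.83 CPM (Pecam1, with Cldn5 and Ly6c1 at 0). The 6 markers of fibroblasts and pericytes summed to 1.16 and 0 CPM, with Lum, Col1a1 and Rgs5 at 0, and the 4 ependymal markers to 0 and 0.981 CPM. The 6 microglial markers summed to 73.2 and 65.8 CPM, with C1qa at 0. All 6 oligodendrocyte markers were detected and summed to 98.8 CPM in male and 44.2 CPM in female members, against 122 and 54.1 CPM in the matched nuclei. The 5 markers of oligodendrocyte precursors summed to 75.6 and 98.1 CPM, almost entirely Vcan, which is also used by ventral dopaminergic neurons. Of these markers of other cells, only 3 of oligodendrocytes and 1 each of oligodendrocyte precursors, astrocytes, microglia, endothelial cells and GABAergic neurons were abundant enough to be tested between members and matched nuclei, and none of those passed. The markers of fibroblasts and pericytes, ependymal cells and glutamatergic neurons were not tested.

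Anxa1 was concentrated among Sox6 nuclei that also held Aldh1a1. In the male library 145 of 1186 nuclei with Sox6 and Aldh1a1 held Anxa1 (12.2%, interval 10.4 to 14.2%), against 32 of 1924 with Sox6 and no Aldh1a1 UMI (1.66%, 1.14 to 2.34%). In the female library the shares were 151 of 1266 (11.9%, 10.2 to 13.8%) and 38 of 1552 (2.45%, 1.74 to 3.35%). The group with Aldh1a1 was deeper in each library, at a median of 3821 UMIs against 3119 UMIs in the male library and 4241.5 UMIs against 3398 UMIs in the female one. When every nucleus was thinned to 1000 UMIs, the expected shares were 4.41% against 1.54% in the male library and 4.75% against 1.78% in the female library. For comparison, among nuclei with neither Th nor Slc6a3 UMIs, 19 of 1051 male nuclei (1.81%, 1.09 to 2.81%) and 11 of 531 female nuclei (2.07%, 1.04 to 3.68%) held Anxa1, at median depths of 1884 and 1783 UMIs. After thinning, these shares were 0.888% and 1.32%. These nuclei are shallow and 24.6% of the male and 20.3% of the female ones held Sox6, so that they do not measure free RNA alone, and its part in the shares was not tested.

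Sox6 and Anxa1 also occurred together more often than Sox6 did elsewhere. Sox6 was detected in 69.1% of 256 male and 72.7% of 260 female nuclei with Anxa1, against 46.6% and 50.1% of nuclei without it. After thinning to 1000 UMIs, the values were 36.5% and 38.4% against 24.6% and 27.0%. Calb1, which encodes calbindin and marks a complementary set of dopaminergic neurons, was examined as well. Of Sox6 nuclei with a Calb1 UMI, 17 of 292 male nuclei (5.82%, 3.43 to 9.16%) and 25 of 280 female nuclei (8.93%, 5.86 to 12.9%) held Anxa1. Among all Sox6 nuclei the shares were 5.69% and 6.71%, at median depths of 3387 and 3746 UMIs, where the nuclei with Calb1 had 4568 and 4709.5 UMIs.

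To ask which other transcripts distinguish Sox6 nuclei with Anxa1, UMIs were summed for each library and group and tested with edgeR. Of 10865 genes tested, 88 (0.81%) were higher and 122 (1.12%) were lower in the members at an adjusted p under 0.05, together 1.93%. All 210 moved the same way in both libraries, which calling genes on both libraries together favours. For 195 of them the 2 member values did not overlap the 2 matched values, which held for 30.1% of all genes tested. The median change among the 210 was 1.38-fold, and 28 changed at least 2-fold. DESeq2 called 22 genes higher and 23 lower, together 2.02% of the 2229 genes it gave an adjusted p, and all of them were among the 210. Without the library as a block, edgeR called 5 higher and 1 lower. Members and matched nuclei of a library came from the same mice, so the test does not measure the spread between mice. A small SE or p-value below also does not show that the 2 libraries agreed closely on a gene. For Aldh1a1, the difference of log2(CPM + 1) was 1.34 in male and 0.82 in female nuclei, with an SE of 0.07. For Hs6st3 this difference was 0.99 and 0.95, with an SE of 0.05. In these sums, fewer nuclei with a transcript and less of it per nucleus cannot be told apart.

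**Figure D1:**
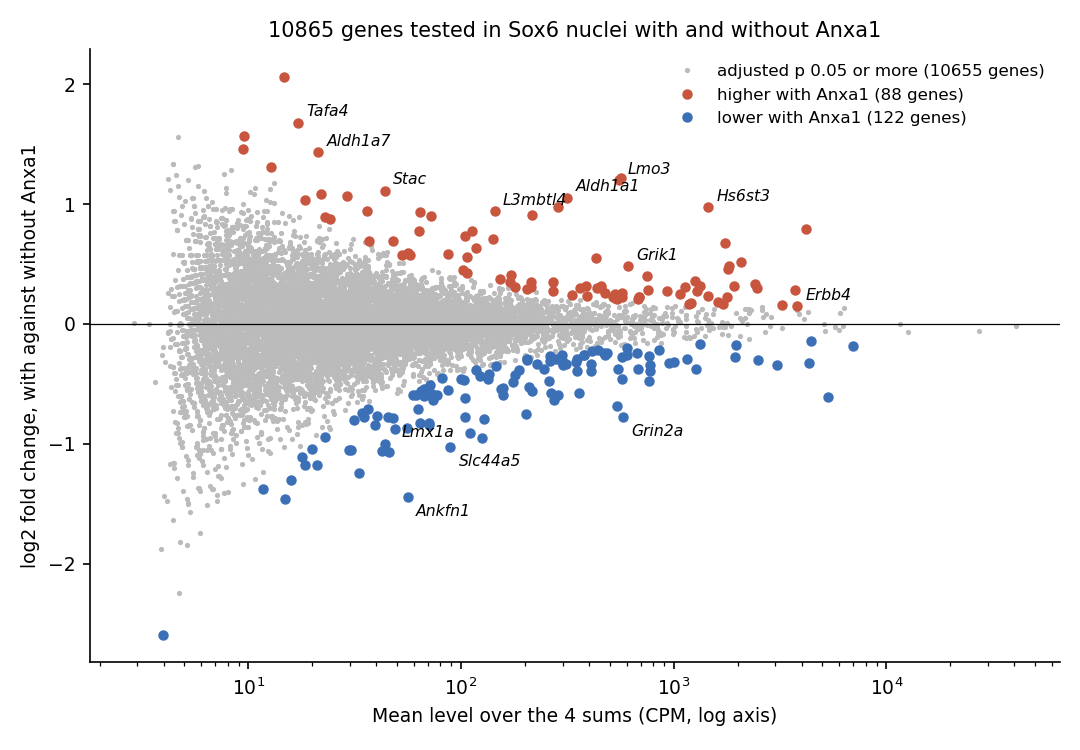
Log2 fold change of each gene between Sox6 nuclei with Anxa1 and matched Sox6 nuclei without Anxa1 (vertical axis) against its mean level over the 4 sums in CPM (horizontal log axis). Grey points are genes that did not pass, red points the 88 genes that were higher and blue points the 122 that were lower. Among the abundant genes Lmo3, Hs6st3 and Aldh1a1 stand apart above, and Grin2a below.

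Lmo3, a LIM-domain cofactor of transcription (chr6:138362918-138581968 in mm10, minus strand), was at 809 CPM in male and 730 CPM in female members, against 305 and 364 CPM in the matched nuclei. Both member values were above both matched values, and the log2 fold change was 1.20 ± 0.06 (SE, n = 2 libraries, adjusted p = 1.32e-85 in edgeR and 1.22e-06 in DESeq2). At least 1 UMI of Lmo3 was found in 91.0% of male and 86.2% of female members, against 55.9% and 58.9% of matched nuclei. Zfp804b, which encodes a zinc finger protein, was at 829 and 750 CPM against 291 and 384 CPM (log2 fold change 1.22 ± 0.06, adjusted p = 3.51e-89 in edgeR). Hs6st3, a heparan sulfate 6-O-sulfotransferase, was the most abundant of this group, at 1916 and 1929 CPM against 965 and 1000 CPM (0.97 ± 0.05, adjusted p = 1.50e-87 in edgeR). These 3 genes were also called in the fit without the block.

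Tafa1, which encodes a small secreted protein of the brain, was at 430 CPM in male and 331 CPM in female members against 192 CPM in both sets of matched nuclei (0.98 ± 0.07, adjusted p = 1.41e-35 in edgeR). Its relative Tafa4 was much scarcer, at 31.4 and 21.6 CPM against 3.50 and 12.2 CPM (1.68 ± 0.32, adjusted p = 2.69e-05 in edgeR), and the matched female value was several times the matched male value. Further higher genes were Stac, an adaptor of voltage-gated calcium channels, with a log2 fold change of 1.11 ± 0.19, Myof, a membrane protein of the ferlin family, with 1.08 ± 0.28, and Ccnd2, a D-type cyclin, with 1.30 ± 0.36. Abtb2, 6820408C15Rik and Eif3f, a translation initiation factor subunit, were also among the 15 largest increases, at 1.57, 1.46 and 1.03, from levels of at most 30.2 CPM.

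**Figure D2:**
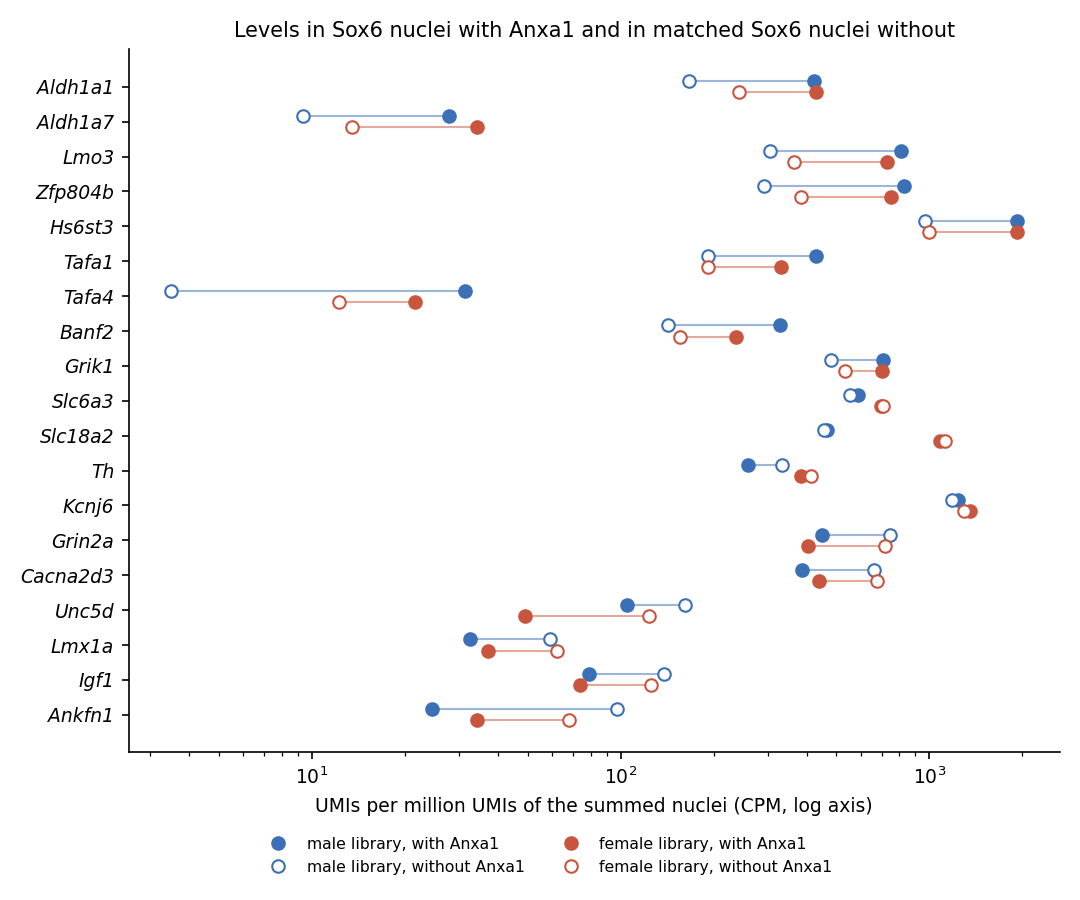
Levels of 19 genes in CPM (horizontal log axis) in Sox6 nuclei with Anxa1 (filled) and in matched Sox6 nuclei without Anxa1 (open), for the male (blue) and female (red) library. Filled points lie to the right of open points in both libraries from Aldh1a1 to Grik1, nearly coincide for Slc6a3 and Slc18a2, and lie to the left from Grin2a to Ankfn1.

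Aldh1a1 and the genes around Anxa1 were examined next, since both lie on chromosome 19. Aldh1a1 was at 422 CPM in male and 430 CPM in female members, against 166 and 242 CPM in the matched nuclei, and the groups did not overlap (log2 fold change 1.05 ± 0.07, adjusted p = 8.27e-45 in edgeR and 0.00296 in DESeq2). It was detected in 81.9% and 79.9% of members against 36.5% and 49.2% of matched nuclei. Aldh1a7, a close relative of Aldh1a1, was at 27.9 and 34.4 CPM against 9.33 and 13.5 CPM (1.44 ± 0.28, adjusted p = 5.48e-05 in edgeR). The longest open reading frames of both genes in GENCODE have 1506 bases and are identical at 92.0% of aligned bases, so reads of the more abundant Aldh1a1 may have been counted for Aldh1a7 and its value is uncertain. Of the 10 genes of the retinoic acid pathway that were tested, these 2 were higher and none lower in edgeR, against 0.81% higher and 1.12% lower over all genes, with a list median of -0.01 against -0.0013 over all genes tested. DESeq2 called 1 of the 10, Aldh1a1, and gave Aldh1a7 no adjusted p. The other 8, among them the retinoic acid receptors tested, did not pass.

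The promoters of Aldh1a1 and Aldh1a7 are shown because these neighbours were both higher in the members and resemble each other. The RefSeq sequences (GRCm38.p6) run 5′ to 3′ from 130 to 11 bases before the annotated start, at chr19:20601838-20601957 on the plus strand for the downstream start of Aldh1a1 and chr19:20727567-20727686 on the minus strand for Aldh1a7. Capitals mark a CCAAT box (CCAAT) and an octamer (ATGCAAAT), the motifs that a search of both strands found in these stretches, and they do not overlap.
Aldh1a1: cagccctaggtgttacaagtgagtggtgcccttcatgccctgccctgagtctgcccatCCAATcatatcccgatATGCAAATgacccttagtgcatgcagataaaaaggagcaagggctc
Aldh1a7: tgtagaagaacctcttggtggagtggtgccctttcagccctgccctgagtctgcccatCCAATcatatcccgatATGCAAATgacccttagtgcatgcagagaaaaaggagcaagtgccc
Without gaps 95 of 120 bases were identical, and both motifs began at the same distance from the start, 72 and 56 bases. Of 32851 RefSeq promoters of 250 bases, 33.8% held the CCAAT box, 1.60% the octamer and 0.767% both. Motifs for a TATA box (TATAAA), for SOX factors (AACAAT and ACAAAG) and for NR4A2 (AAAGGTCA) were searched too and occurred in 12.4%, 9.42%, 16.5% and 1.34% of promoters. The promoter of Anxa1 held a TATA box 32 bases before its RefSeq start, which lies 273 bases inside the 5′ end of the gene in GENCODE, and no other motif of the search. A match is a description of the sequence only.

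Within 1 Mb of Anxa1, which lies at chr19:20373428-20390944 on the minus strand, the annotation holds 15 genes of the count table, Anxa1 included. The long noncoding gene 1500015L24Rik, at chr19:20324856-20444883 on the plus strand, overlaps Anxa1. It was at 22.1 and 25.5 CPM in members against 5.44 and 5.94 CPM in matched nuclei. Whether strand was used in counting is not given in the sources used here. It was therefore not checked whether its reads were kept apart from those of Anxa1, which chose the nuclei, and no test of it is given. C730002L08Rik, at chr19:20410544-20552330 on the minus strand, overlaps Aldh1a1 in the same way. It was at 47.7 and 31.4 CPM against 15.2 and 21.4 CPM (1.07 ± 0.24, adjusted p = 7.69e-04 in edgeR), with the same limit. Zfand5, 881333 bases from Anxa1, was at 57.0 and 63.8 CPM against 47.8 and 51.1 CPM and did not pass (0.29 ± 0.17, adjusted p = 0.628 in edgeR). Tmc1 lies between Aldh1a7 and Zfand5 and had no UMI in the members. The other 8 neighbours, all noncoding, were at 0 or held at most 1 UMI in the members.

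**Figure D3:**
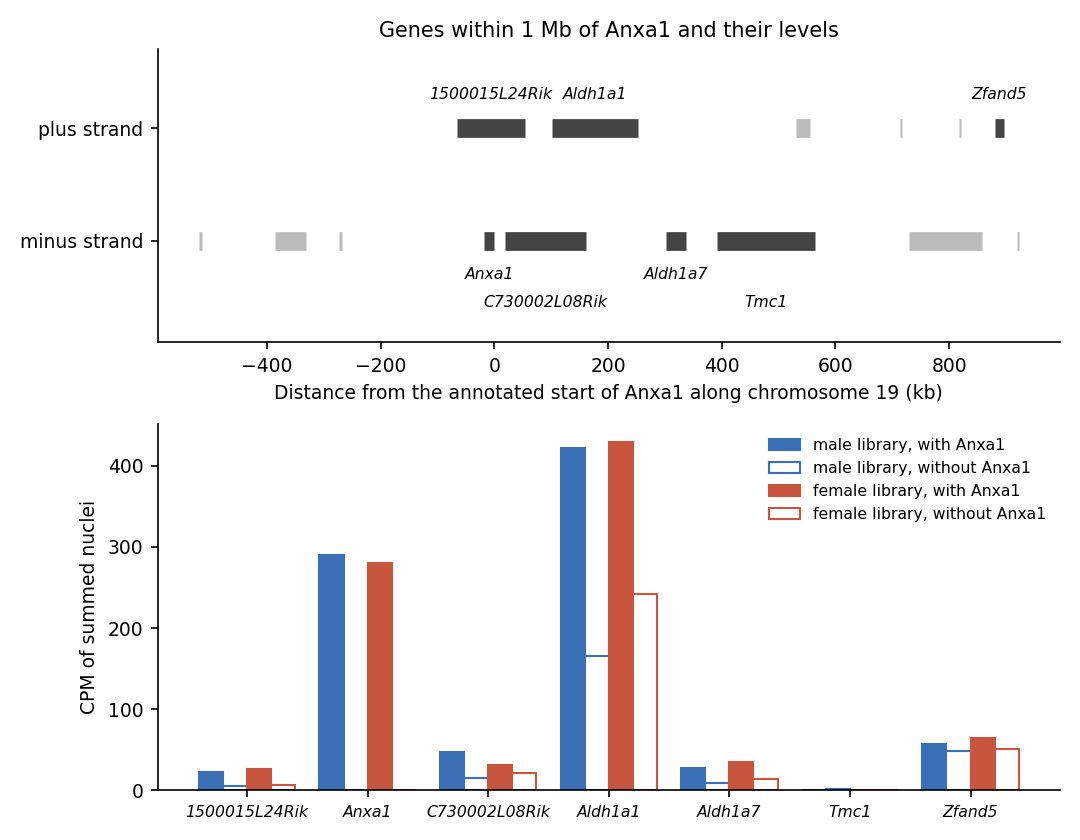
The upper panel draws the genes within 1 Mb of Anxa1 to scale by strand, as distance in kb from its annotated start, and names those discussed. The lower panel gives their levels in CPM in Sox6 nuclei with Anxa1 (filled bars) and in matched nuclei without it (open bars) in each library. The bars of Aldh1a1 are the tallest, at 422 and 430 CPM against 166 and 242 CPM, while Tmc1 is at or near 0 throughout.

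Other genes that name ventral dopaminergic neurons moved in both directions. Of 16 such genes, all tested, 4 were higher (Aldh1a1, Aldh1a7, Lmo3 and Satb1), 3 were lower (Igf1, Bcl11a and Tox) and 9 did not pass in edgeR, with a median of -0.07. Over all genes 0.81% were higher and 1.12% lower. DESeq2 called 2 of the 7. Satb1, a chromatin organizer, was at 434 and 570 CPM against 364 and 447 CPM (0.31 ± 0.06, adjusted p = 8.69e-05 in edgeR). Igf1, an insulin-like growth factor, was at 79.0 and 73.6 CPM against 138 and 125 CPM, without overlap (-0.78 ± 0.12, adjusted p = 8.11e-08 in edgeR). It did not pass in DESeq2 (adjusted p = 0.132). Bcl11a, a zinc finger transcription factor, was at 36.0 and 15.7 CPM against 58.3 and 30.0 CPM (-0.77 ± 0.22), and the male member value was above the matched female value. Vcan, which encodes the proteoglycan versican, was at 70.9 and 97.2 CPM against 48.6 and 86.1 CPM, and Ndnf, a secreted neurotrophic protein, at 100 and 108 CPM against 117 and 142 CPM. Neither passed. Grin2c, the NMDA receptor subunit that marks another set of Sox6 nuclei, was at 52.3 CPM in male members against 62.2 CPM and at 130.5 CPM in female members against 96.6 CPM. The libraries moved in opposite directions and the gene did not pass. Of the members, 37 male and 82 female nuclei held a Grin2c UMI, so that the 2 sets shared 119 nuclei.

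Only 5 of 16 dorsal tier and ventral tegmental area (VTA) genes were abundant enough to be tested. Necab1, which encodes a neuronal calcium-binding protein, was lower, at 48.8 and 57.9 CPM against 85.9 and 77.2 CPM (-0.59 ± 0.15, adjusted p = 0.00851 in edgeR), and the other 4 did not pass. The list median was 0.23, over all genes 1.12% were lower, and DESeq2 called none of the 5. Calb1 was at 23.2 and 40.2 CPM against 27.2 and 28.0 CPM. Otx2, a transcription factor of VTA neurons, had no UMI in male members and was at 3.93 CPM in female members.

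None of 12 tested genes for dopamine synthesis, storage, reuptake and breakdown passed, where 1.93% of all genes did, and their median was 0.03. So short a list may hold no call at that share. Slc6a3 was at 589 and 695 CPM against 554 and 710 CPM (0.03 ± 0.06). Slc18a2 was at 467 CPM in male and 1082 CPM in female members against 455 and 1123 CPM, a gap between the libraries that the matched nuclei shared. Drd2, the dopamine autoreceptor, was at 332 and 340 CPM against 358 and 360 CPM. Th was at 258 and 385 CPM against 334 and 415 CPM (-0.21 ± 0.07, adjusted p = 0.106 in edgeR). Among 12 transcription factors of dopaminergic identity, Lmx1a alone passed in edgeR and none in DESeq2, against 1.93% called by edgeR over all genes. Lmx1a was at 32.5 and 37.3 CPM against 59.1 and 62.3 CPM, without overlap (-0.79 ± 0.19, adjusted p = 0.00211 in edgeR), and the median of the list was -0.03.

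Of 23 glutamate receptor genes tested, 1 was higher, 5 were lower and 17 did not pass in edgeR, against 0.81% higher and 1.12% lower over all genes, with a median of -0.06. DESeq2 called 3 of the 6. Grin2a, the GluN2A subunit of NMDA receptors, was at 449 and 403 CPM in members against 748 and 716 CPM in matched nuclei (-0.78 ± 0.06, adjusted p = 3.50e-33 in edgeR and 6.02e-08 in DESeq2). It was detected in 47.5% and 41.8% of members against 71.0% and 70.2% of matched nuclei. The kainate receptor subunits were divided. Grik1 was higher, at 709 and 702 CPM against 479 and 534 CPM (0.48 ± 0.06, adjusted p = 5.28e-14 in edgeR), whereas Grik2 (-0.34 ± 0.07) and Grik3 (-0.26 ± 0.07) were lower. The metabotropic receptor gene Grm7 was lower, with a log2 fold change of -0.39 ± 0.07.

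Of 33 genes of pacemaking and excitability tested, 2 were higher, 2 were lower and 29 did not pass in edgeR, against 1.93% called over all genes, with a median of -0.02 against -0.0013. DESeq2 called none of the 33. Cacna1c, the CaV1.2 calcium channel, was at 825 and 631 CPM against 665 and 594 CPM, so that the female member value lay below the matched male value. Its log2 fold change was 0.21 ± 0.06 (adjusted p = 0.0172 in edgeR). Fgf13 and Fgf14, both cytosolic partners of sodium channels, moved in opposite directions, with 0.35 ± 0.08 and -0.18 ± 0.05. Kcnd2, which encodes the KV4.2 potassium channel, was lower at -0.21 ± 0.06 (adjusted p = 0.0483 in edgeR). Cacna1d, the CaV1.3 channel, was at 552 and 536 CPM against 567 and 561 CPM, and Kcnj6, the GIRK2 channel, was at 1238 and 1350 CPM against 1186 and 1295 CPM. Neither passed. Among 21 tested genes of a list of receptors for GABA and acetylcholine, which does not hold Chrm3 (given below), the GABA-A receptor subunit Gabrg3 was lower in edgeR (-0.29 ± 0.09) and not called by DESeq2, and none was higher. The list median was -0.03, and over all genes 0.81% were higher and 1.12% lower. Cacna2d3, an auxiliary subunit of calcium channels outside these lists, was lower, at 387 and 441 CPM against 664 and 676 CPM (-0.69 ± 0.06, adjusted p = 6.13e-25 in edgeR).

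Of 28 axon guidance genes tested, 4 were higher (Unc5c, Epha5, Robo2 and Ntng1), 4 were lower (Unc5d, Epha6, Robo1 and Plxnc1) and 20 did not pass in edgeR, with a median of -0.10. The background over all genes was again 1.93%, and DESeq2 called 1 of the 8, Unc5d. Of the netrin receptors, Unc5c was at 959 and 1075 CPM against 781 and 910 CPM (0.27 ± 0.05), whereas Unc5d was at 105 and 49.1 CPM against 161 and 124 CPM (-0.91 ± 0.12, adjusted p = 4.09e-11 in edgeR). Of the ephrin receptors, Epha5 was higher (0.23 ± 0.05) and Epha6 lower (-0.30 ± 0.05). Of the SLIT receptors, Robo2 was higher (0.23 ± 0.05) and Robo1 lower (-0.17 ± 0.05). Among 17 neurotrophic and growth factor genes, 1 was higher and 3 were lower in edgeR, against 1.93% called over all genes, with a median of -0.03. DESeq2 called none of them. Ntrk3, the receptor of neurotrophin-3, was at 214 and 215 CPM against 311 and 291 CPM (-0.48 ± 0.08, adjusted p = 4.34e-07 in edgeR). Erbb4 (0.15 ± 0.04) and its ligand Nrg1 (-0.14 ± 0.04) moved in opposite directions by small amounts.

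No gene passed among 15 tested genes of inherited Parkinson disease, 9 of neuropeptides and their receptors, 4 immediate early genes and 4 annexins and annexin partners, lists too short to be read against the 1.93% called over all genes. Anxa6 was the most abundant other annexin, at 69.7 and 96.2 CPM against 84.0 and 82.1 CPM, and Anxa2 had no UMI in the members.

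The largest decreases outside the lists were in scarce transcripts. Ankfn1, which encodes a protein with ankyrin repeats, was at 24.4 and 34.4 CPM against 97.2 and 68.3 CPM (-1.44 ± 0.18, adjusted p = 8.20e-13 in edgeR). Slc44a5, a member of the choline transporter-like family, was at 52.3 and 63.8 CPM against 123 and 117 CPM (-1.03 ± 0.13). Chrm3, the M3 muscarinic receptor, was at 41.8 and 17.7 CPM against 77.8 and 45.8 CPM (-1.07 ± 0.20). Lamb1, a laminin chain, Cald1, an actin-binding protein, and Cep112, a centrosomal protein, had log2 fold changes of -1.46, -1.18 and -1.24. Esyt1, an extended synaptotagmin, rested on 2 UMIs in the male members and 0 in the female members. The other genes among the 15 largest decreases were Tgm6, 1700016P03Rik, Plxnc1, Pskh1, Gm32647, Elfn1, Tmem232 and Mxi1, with log2 fold changes from -1.38 to -1.05. Of these, Plxnc1 belongs to the axon guidance list above. In a library alone, as a difference of log2(CPM + 1), Gm32647 was at -1.81 in male and -0.41 in female nuclei, and in male nuclei Tmem232 was at -1.66 and 1700016P03Rik at -0.70.

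Members were also divided by their number of Anxa1 UMIs, the value that chose them, and the genes given were picked after their values were seen, without a test. Nuclei with 1 Anxa1 UMI and nuclei with 2 or more (131 and 46 male, 129 and 60 female) had median depths of 3889 and 4590 UMIs in the male library and 4361 and 4698.5 UMIs in the female library. Lmo3 was at 784 CPM with 1 UMI and 876 CPM with 2 or more in the male library, and at 696 and 797 CPM in the female library, against 305 and 364 CPM in the matched nuclei with none. Aldh1a1 was at 403 and 473 CPM in the male and 399 and 490 CPM in the female library. Lmx1a was at 38.1 and 17.4 CPM in the male and 46.0 and 20.3 CPM in the female library, where the values at 2 or more rested on 4 and 7 UMIs. Kcnd2 was at 464 and 273 CPM and at 427 and 342 CPM. Tafa1 went the other way from Lmo3, at 449 and 377 CPM and at 338 and 316 CPM.

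**Figure D4:**
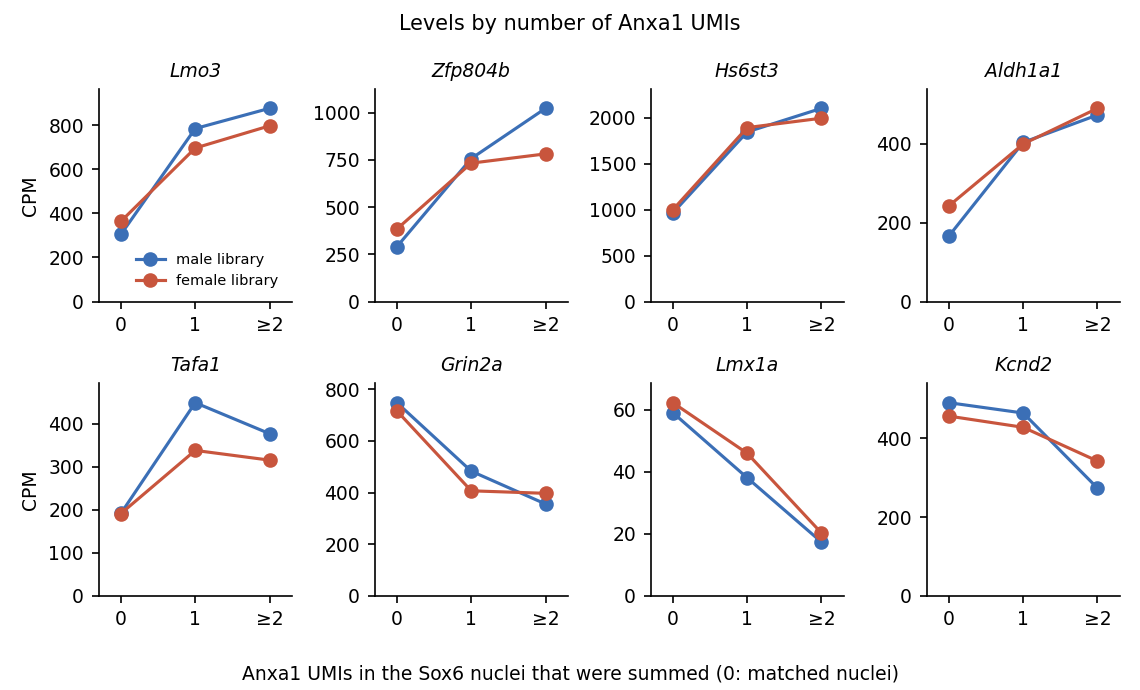
Levels of 8 genes in CPM (vertical axes from 0) in Sox6 nuclei with 0, 1 and 2 or more Anxa1 UMIs (horizontal axes), where 0 stands for the matched nuclei, in the male (blue) and female (red) library. Lmo3, Zfp804b, Hs6st3 and Aldh1a1 are highest at 2 or more, while Lmx1a is at 59.1 and 62.3 CPM at 0 and, from 4 and 7 UMIs, at 17.4 and 20.3 CPM at 2 or more.

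Members also varied in Aldh1a1. It was detected in 145 of 177 male and 151 of 189 female members, and among members with 2 or more Anxa1 UMIs in 91.3% of male but 76.7% of female nuclei. The 32 male and 38 female members without an Aldh1a1 UMI were shallower, at a median of 3258 UMIs in the male and 3345.5 UMIs in the female library, where members with Aldh1a1 had 4225 and 4620 UMIs. They held Lmo3 at 524 and 511 CPM, between the 858 and 775 CPM of members with Aldh1a1 and the 305 and 364 CPM of matched nuclei. Their Grin2a was at 627 and 674 CPM, against 418 and 348 CPM with Aldh1a1.

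Whether Anxa1 divides the Aldh1a1 nuclei was addressed by requiring Sox6 and Aldh1a1 in both groups, which left 145 male and 151 female members, 3 matched nuclei for each, and Aldh1a1 out of the test. Most members held a single Anxa1 UMI, so the nuclei without one may include neurons whose Anxa1 went undetected. The same holds for the first comparison. How far this lowered the folds and the number of calls was not tested, so few calls do not measure how weakly Anxa1 divides these nuclei. Of 10380 genes, 24 (0.231%) were higher and 20 (0.193%) were lower in the nuclei with Anxa1, together 0.424%. DESeq2 called 3 higher and 1 lower (0.0385%), and edgeR called none in either direction without the block or without its filter on low counts, although 661 genes had an unadjusted p under 0.05 in the blocked fit. These nuclei are largely those of the first comparison, so the results are not independent of it. Lmo3 was at 858 and 775 CPM against 516 CPM in both sets of matched nuclei (0.66 ± 0.06, adjusted p = 3.50e-22 in edgeR and 3.12e-04 in DESeq2). Hs6st3 was at 2024 and 2029 CPM against 1421 and 1371 CPM (0.54 ± 0.05, adjusted p = 5.58e-23 in edgeR). Zfp804b (0.69 ± 0.06), Tafa1 (0.63 ± 0.08), Banf2 (0.62 ± 0.09), the noncoding Gm43016 (0.72 ± 0.16) and the protocadherin Pcdh17 (0.56 ± 0.12) were higher too. Aldh1a7 was at 30.0 and 39.0 CPM against 16.5 and 16.7 CPM (1.06 ± 0.28, adjusted p = 0.0302 in edgeR), with Aldh1a1 detected in every nucleus of both groups. The overlapping 1500015L24Rik was at 21.8 and 24.8 CPM against 4.58 and 7.17 CPM, again without a test of its own. The level of Aldh1a1 itself was 494 and 517 CPM against 422 and 455 CPM, a description only, since the gene chose the nuclei.

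On the lower side, Grin2a was at 418 and 348 CPM against 547 and 529 CPM (-0.49 ± 0.07, adjusted p = 1.69e-08 in edgeR). Igf1 was at 61.3 and 74.4 CPM against 108 and 100 CPM (-0.61 ± 0.15), and Cacna2d3 at 339 and 435 CPM against 535 and 532 CPM (-0.45 ± 0.07). St6gal1, a sialyltransferase, Ankfn1, Ddah1, an enzyme that breaks down methylarginines, Rph3a, a vesicle-associated protein, and the noncoding Gm28905 completed the 8 largest decreases, from -1.04 to -0.50. None of the 12 genes for dopamine synthesis and handling, the 12 for dopaminergic identity or the 33 for pacemaking passed, where 0.424% of all genes did. Of genes that passed in the first comparison, Lmx1a (-0.78 ± 0.24, adjusted p = 0.175 in edgeR), Satb1 (0.19 ± 0.07, 0.452) and Unc5d (-0.28 ± 0.16, 0.861) did not pass here. The fold of Lmx1a was close to the -0.79 of the first comparison, and the difference between the comparisons was not tested.

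Nuclei with Anxa1 and no Sox6 UMI were compared as well. Each of these 79 male and 71 female nuclei was set against 1 member of similar depth. The medians were 3159 UMIs in the members and 3152 in the others in the male library, and 2824 and 2809 UMIs in the female library. Single pairs differed by up to 173%. Of 4459 genes tested, 124 (2.78%) were higher and 147 (3.3%) were lower in the members, together 6.08%. Scaled to library size alone, 97 were higher and 172 lower, and without the filter on low counts 20 and 13. DESeq2 called 22 and 17, together 2.3% of the 1693 genes it gave an adjusted p. Fewer genes were also called without the library as a block. Of 16 named genes called in this comparison, 3 were called again without the filter and 11 without the block. Here Aldh1a1 did not separate the groups, at 462 and 443 CPM in the members against 407 and 495 CPM (0.06 ± 0.15, adjusted p = 0.944 in edgeR), and Tafa1 was at 451 and 376 CPM against 371 and 450 CPM. The level of Anxa1 was 359 and 443 CPM in the members and 374 and 410 CPM in the nuclei without Sox6. Marker levels also differed between these groups. The GABAergic markers summed to 0 and 4.47 CPM in the members against 32.4 and 26.7 CPM in the nuclei without Sox6, mostly Gad2, with Slc32a1 at 0. The list of Calb1, dorsal tier and VTA genes, of which 12 of 16 were detected, summed to 56.8 and 112 CPM against 266 and 250 CPM. Necab1 was the 1 gene of this list abundant enough to be tested and was lower in edgeR, at 17.8 and 22.4 CPM against 86.4 and 75.7 CPM. Of the oligodendrocyte markers 5 of 6 were detected, with Mobp at 0, and they summed to 60.4 and 44.7 CPM against 101 and 93.6 CPM. Those of oligodendrocyte precursors went the other way, at 88.8 and 125 CPM against 50.4 and 57.9 CPM, mostly Vcan, with Cspg4, Olig1 and Olig2 at 0. The part of other cells in the differences below was not tested.

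Higher in the Anxa1 nuclei with Sox6 was Lix1, at 714 and 729 CPM against 223 and 214 CPM (1.76 ± 0.16, adjusted p = 2.66e-24 in edgeR). Grin2c was higher too, at 81.7 and 170 CPM against 28.8 and 57.9 CPM (1.56 ± 0.35, adjusted p = 4.46e-04 in edgeR). Hs6st3 was at 1940 and 2170 CPM against 1062 and 815 CPM, and Lmo3 at 856 and 725 CPM against 457 and 495 CPM. L3mbtl4, Vill, Gm13986, Map9 and Arhgdia also belonged to the 8 largest increases, with log2 fold changes from 1.55 to 1.61. Of 12 tested ventral tier genes, 5 were higher and 1 was lower in edgeR, against 2.78% higher and 3.3% lower over all genes, with a median of 0.69. DESeq2 called none of the 12.

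Lower in the Anxa1 nuclei with Sox6 was Kcnab1, a beta subunit of potassium channels, at 42.6 and 35.8 CPM against 310 and 316 CPM (-2.92 ± 0.28, adjusted p = 8.58e-23 in edgeR and 2.78e-05 in DESeq2). Kcnip1, a KV4 partner, was at 21.3 and 8.95 CPM against 104 and 107 CPM (-2.66 ± 0.46). Its member values rest on few UMIs, so the size of this fold is uncertain. Grin2a was at 352 and 130 CPM against 864 and 802 CPM (-1.72 ± 0.15, adjusted p = 9.12e-26 in edgeR and 0.119 in DESeq2), with differences of log2(CPM + 1) of -1.29 in the male library and -2.62 in the female one. Otx2os1, a noncoding gene beside Otx2, had 1 UMI in male and 2 UMIs in female members, against 22 and 21 UMIs in the others. Chrm2, the M2 muscarinic receptor, had 0 and 1 UMI against 18 and 17 UMIs. Sorcs3, Col23a1, Plekhg1 and Cald1 were lower too, with log2 fold changes from -2.89 to -2.79. In the female library alone, as a difference of log2(CPM + 1), Sorcs3 was at -3.89, Cald1 at -3.63, Kcnip1 at -3.44 and Plekhg1 at -2.23.

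**Figure D5:**
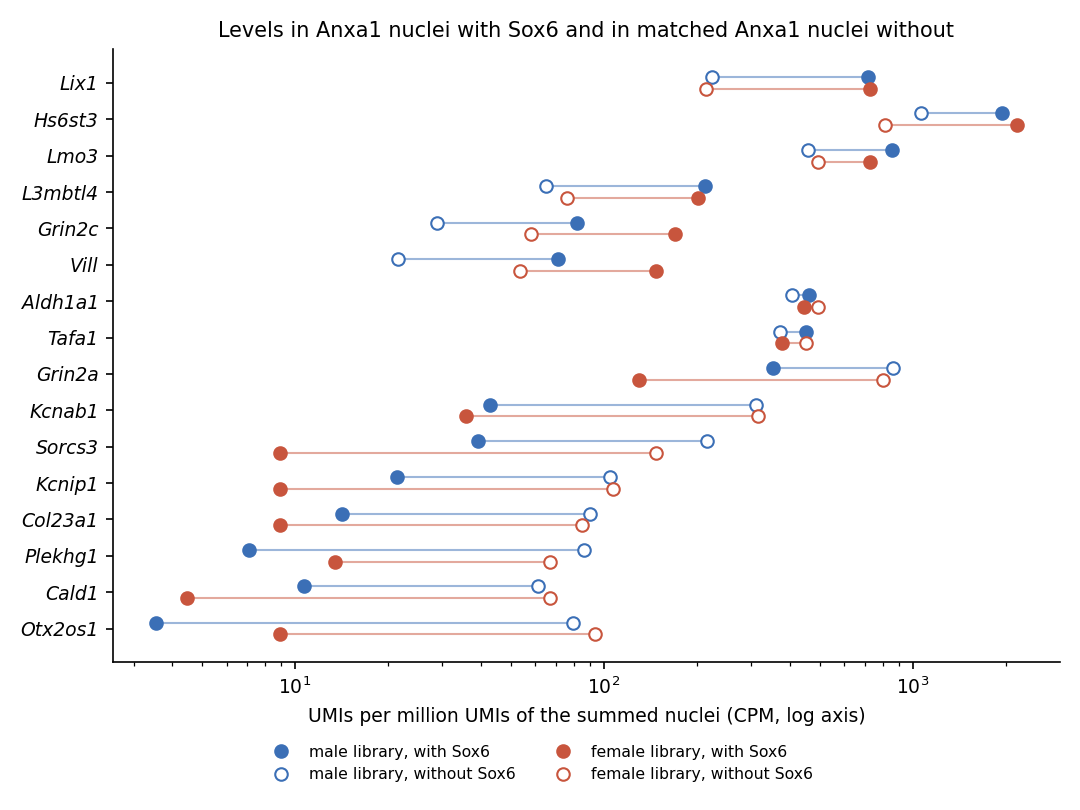
Levels of 16 genes in CPM (horizontal log axis) in nuclei with Anxa1 and Sox6 (filled) and in nuclei of matched depth with Anxa1 and no Sox6 UMI (open), for the male (blue) and female (red) library. Filled points lie to the right from Lix1 to Vill and to the left from Grin2a to Otx2os1, while the points of Aldh1a1 and Tafa1 mix.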

How the data were processed

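Single-nucleus RNA-seq of 2 libraries was analysed. The authors aligned reads to mm10 with Cell Ranger 6.0.0, introns included, and deposited raw UMI counts per gene and nucleus. Seurat 4.0.2 is also named in the submitters' notes. No doublets were removed, since Scrublet called 0 male and 1 female nuclei. So few calls do not show that doublets were absent. The paper set aside a cluster as likely doublets of dopamine neurons with oligodendrocytes. Of the members, 10.7% of male and 10.6% of female ones were among the 342 of 6556 and 272 of 5509 nuclei with the highest Scrublet scores. That cut took at most 6% of the nuclei of a library, so members were more frequent among them. The part of doublets in the members was not tested. Without those nuclei, the first comparison gave 92 genes higher and 123 lower.

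Members, lists and tests were chosen with earlier results of these data known. Each member was matched within its library, without replacement, to 3 nuclei nearest in UMIs (Anxa1 and Sox6 left out), or to 1 nucleus in the comparison of Anxa1 nuclei. Sums per library and group were tested with edgeR 4.0.16 (R 4.3.3): quasi-likelihood F test, TMM scaling, default filter on low counts, Benjamini-Hochberg adjustment over all genes tested and a threshold of 0.05. The library was a block because both sums of a library come from the same mice. The SE is the log2 fold change divided by the square root of F, and it can be smaller than the gap between the libraries. DESeq2 1.42.0 was an alternative, along with other scaling, filters, matching and definitions of members, and each library alone as a difference of log2(CPM + 1). In simulated counts of 10865 genes for the first comparison, 62% of 2-fold and 91% of 4-fold changes were called, and 7.27% of calls were unchanged genes. These counts had 1 dispersion for all genes (6.68e-04) and the same fold in both libraries. Smaller changes, which most calls were, and folds that differ between libraries were not simulated, so the shares do not extend to them. Thinning used the exact expectation at 1000 UMIs, without draws.

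Named genes are Anxa1, Sox6 and Aldh1a1, list members that passed in the first comparison, genes within 1 Mb of Anxa1, and the largest changes in each direction with at least 30 UMIs and 1 direction in both libraries (15, or 8 in the other comparisons). Other genes were named after their values were seen, and a few genes of the lists and of this rule are not reported here. Positions are from GENCODE vM21, where 32158 of 32285 gene identifiers were found.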

Additional observations from a re-analysis of the deposited data

Results flagged for a closer look

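Between Sox6 nuclei with Anxa1 and matched Sox6 nuclei without, 16 named genes had values of opposite sign in the 2 libraries. The difference between the libraries was not tested, and none of these genes passed the test of both libraries together. The values are differences of log2(CPM + 1) in 1 library. Grin2c was at -0.25 in male and 0.43 in female nuclei. Calb1 was at -0.22 and 0.51. Tacr3, the neurokinin receptor, was at -1.06 and 0.023, with 45.3 CPM in male members against 95.6 CPM in matched nuclei and 83.4 against 82.1 CPM in the female library. The annexin Anxa6 was at -0.26 and 0.23. Slc6a3 was at 0.089 and -0.030, and Slc18a2 at 0.038 and -0.054. The other 10 were named for their difference between Anxa1 nuclei with and without Sox6. Of these, Gm13986 was at 0.17 in male and -0.37 in female nuclei, Vill at 0.34 and -0.10, Map9 at 0.40 and -0.030, Arhgdia at 0.27 and -0.025, and Col23a1 at 0.15 and -0.098. Chrm2 was at 0.38 and -0.96, Otx2os1 at -0.42 and 0.067, Kcnab1 at -0.065 and 0.51, Plekhg1 at -0.47 and 0.95, and Kcnip1 at -0.37 and 0.024. Among Sox6 nuclei with Aldh1a1, Unc5d was at 0.14 in male and -0.86 in female nuclei with Anxa1 against those without. Among Anxa1 nuclei with Sox6 against those without, Aldh1a1 was at 0.18 and -0.16 and Tafa1 at 0.28 and -0.26.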

How the results depend on the processing

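In the first comparison, the counts of genes higher and lower were 88 and 122. They were 22 and 23 with DESeq2, 5 and 1 without the library as a replicate block, 56 and 60 with 1 matched nucleus per member, and 25 and 27 with at least 2 Anxa1 UMIs. The count of lower genes was 80 without matching, 70 with at least 2 Sox6 UMIs and 79 in nuclei with Th and Slc6a3. Among Aldh1a1 nuclei the counts were 24 and 20. They were 3 and 1 with DESeq2, and 0 and 0 both without the filter and without the block. Among Anxa1 nuclei the counts were 124 and 147. They were 22 and 17 with DESeq2, 20 and 13 without the filter, and 26 and 49 without the block. Thinned to 1000 UMIs, members were 0.509% of male and 0.655% of female nuclei, Aldh1a1 was in 38.4% and 41.5% of members, Anxa1 in 2.05% and 2.40% of Sox6 nuclei, and Sox6 in 36.5% and 38.4% of Anxa1 nuclei. The cause of these changes was not tested, beyond the fewer nuclei and UMIs that some settings leave. The 66 called and named genes of the first comparison kept their direction in every setting that gave a value, and in each library alone. The largest changes among them were named only if both libraries agreed, and the settings share most of their nuclei. This agreement is therefore not independent support. Besides the fit without the block, 12 of them were called in each setting that gave an adjusted p: Aldh1a1, Lmo3, Zfp804b, Hs6st3, Tafa1, L3mbtl4, Grik1, Grin2a, Cacna2d3, Unc5d, Rph3a and Gm28905. For 5 of them, the fold in 1 library alone was over 1.5 times the fitted one or under it by as much: Tafa4 (log2 differences of 2.85 in male and 0.78 in female nuclei), Gm32647 (-1.81 and -0.41), and in the male library Tmem232 (-1.66), 1700016P03Rik (-0.70) and Esyt1 (-1.19). Among Anxa1 nuclei this held for Chrm2 and, in the female library, for Grin2a (-2.62), Sorcs3 (-3.89), Cald1 (-3.63), Kcnip1 (-3.44) and Plekhg1 (-2.23). With each library left out in turn there is no test, so no count of calls was available.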
